A study of Mus musculus with 16 samples.

Results

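The secreted Wnt antagonists were followed in embryonic mouse hearts that lacked *Chd7* in the mesoderm, and 9 genes were examined: *Dkk1*, *Dkk2*, *Dkk3*, *Sfrp1*, *Sfrp2*, *Sfrp4*, *Sfrp5*, *Frzb* and *Wif1*. They were taken by name from the 19937 genes with an Affymetrix probe set of their own, and each of the 9 was read by 1 probe set, a group of short DNA probes against the same transcript. *Chd7* encodes a chromatin remodelling enzyme. Single whole hearts of C57BL/6 embryos at E11.5 and E13.5, embryonic days counted from the vaginal plug, were hybridised to Mouse Gene 1.0 ST arrays, with 4 *Chd7fl/fl;Mesp1-Cre* (mutant) and 4 control hearts at each stage, 16 hearts in all. *Mesp1-Cre* recombines the floxed allele in the early mesoderm that forms the myocardium and endocardium, but not in the neural crest, so mutant hearts still held cells with intact *Chd7*. The labels call the controls wild type, and the methods give them as *Chd7+/+;Mesp1-Cre*, but the cross described in the labels (*Chd7fl/+;Mesp1-Cre* to *Chd7fl/fl*) cannot yield *Chd7+/+* embryos, so the genotype of the controls was not settled. All values are on the log2 scale, where a difference of 1 is a doubling of the normalised signal.

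Wnt ligands bind a Frizzled receptor together with the co-receptor LRP5 or LRP6 and stabilise beta-catenin, which then acts with TCF/LEF factors on target genes. The antagonists act outside the cell and fall into separate mechanisms. The Dickkopf protein DKK1 occupies LRP5 and LRP6, in a complex with Kremen receptors, and so blocks the beta-catenin branch alone. Secreted Frizzled-related proteins (*Sfrp1*, *Sfrp2*, *Sfrp4*, *Sfrp5* and *Frzb*, the last also called *Sfrp3*) carry a domain like that of Frizzled and bind Wnt ligands, as does WIF1 through a domain of its own. In the embryo, inhibition of Wnt signalling by Dickkopf proteins promotes the formation of cardiac mesoderm, and later phases of heart development use Wnt signalling in the second heart field, the valves and the epicardium.

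The upstream sequences of the 4 members with the clearest differences between mutant and control are shown, since their differences had opposite signs although they share a role. Each is the 250 bases just before the transcription start in RefSeq (GRCm38.p6), printed 5′ to 3′ on the strand of the gene, with matches to 5 short motifs in capitals. The regions are chr19:30549497-30549746 (minus strand) for *Dkk1*, chr2:80447397-80447646 (minus) for *Frzb*, chr19:42202253-42202502 (minus) for *Sfrp5* and chr10:121033754-121034003 (plus) for *Wif1*.
Dkk1: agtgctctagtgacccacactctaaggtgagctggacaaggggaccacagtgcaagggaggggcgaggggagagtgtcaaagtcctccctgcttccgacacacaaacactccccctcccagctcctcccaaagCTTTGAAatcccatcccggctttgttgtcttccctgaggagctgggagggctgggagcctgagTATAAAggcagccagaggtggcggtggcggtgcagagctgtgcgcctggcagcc
Frzb: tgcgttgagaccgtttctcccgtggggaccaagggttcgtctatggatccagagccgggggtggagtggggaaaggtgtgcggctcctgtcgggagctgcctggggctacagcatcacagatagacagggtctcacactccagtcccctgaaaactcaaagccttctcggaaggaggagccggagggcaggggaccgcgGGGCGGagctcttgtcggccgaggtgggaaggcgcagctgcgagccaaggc
Sfrp5: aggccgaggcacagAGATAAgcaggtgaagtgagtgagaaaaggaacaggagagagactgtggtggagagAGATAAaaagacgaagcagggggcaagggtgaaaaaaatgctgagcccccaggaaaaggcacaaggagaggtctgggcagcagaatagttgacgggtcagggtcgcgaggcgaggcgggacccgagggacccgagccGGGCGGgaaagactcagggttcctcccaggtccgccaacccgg
Wif1: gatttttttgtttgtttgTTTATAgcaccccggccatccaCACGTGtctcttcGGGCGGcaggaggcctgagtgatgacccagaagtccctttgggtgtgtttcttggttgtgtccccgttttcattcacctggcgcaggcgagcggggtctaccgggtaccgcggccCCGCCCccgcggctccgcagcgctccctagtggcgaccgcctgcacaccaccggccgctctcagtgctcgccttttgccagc

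The motifs were searched on both strands, and the share of 27025 upstream windows of the same length that held each is given. The word CTTTGAA and its variant ending in T, cores bound by TCF/LEF factors, were found in 7.69% of windows. The core promoter element TATAAA was found in 13%. The GC box, GGGCGG, was found in 32.9%. The E-box searched was CACGTG, found in 6.04%. The core bound by GATA factors, AGATAA, was found in 10.2%. *Dkk1* held the word CTTTGAA at 117 to 111 bases before the start and TATAAA at 54 to 49 bases. *Frzb* held a single GC box, and *Sfrp5* held 2 GATA words and a GC box. *Wif1* held the word TATAAA on the opposite strand, at 232 to 227 bases before the start, an E-box and 2 GC boxes. These upstream windows held 6 CpG dinucleotides in *Dkk1*, 16 in *Frzb*, 13 in *Sfrp5* and 21 in *Wif1*, against a median of 6 over all windows, so that *Dkk1* had the fewest of the 4. No binding was measured at these sequences, and the words are descriptions only. *Dkk2*, which was not called, also held TATAAA, at 32 to 27 bases before the start, and 7 CpG dinucleotides. It held GC boxes at 60 to 55 and 17 to 12 bases as well. *Sfrp2* held none of the motifs and 16 CpG dinucleotides. *Dkk3*, *Sfrp1* and *Sfrp4* had no entry among the sequences used.

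*Chd7* itself lay between 9.16 and 9.73 in the mutant hearts at E11.5 against 10.64 to 10.89 in the controls, and between 8.88 and 9.07 against 9.83 to 10.30 at E13.5, so every heart fell on the side of its label. All 6 cardiomyocyte markers were above the level below which a probe set was taken as dim (6.34), and so were all 7 of the endothelium and endocardium. Markers of liver (2 of 4 measured), lung and foregut (4 of 6) and skeletal muscle (2 of 4) were partly above it. A total of 3 hearts stood apart. In mutant replicates 3 and 4 at E11.5, 27 and 38 genes exceeded all other hearts of that stage by more than 1 log2 unit, and in control replicate 1 at E13.5, 21 genes did. Y-linked transcripts (3 genes) were high in all 4 controls but 2 of 4 mutants at the earlier stage. At the later stage they were high in 2 of 4 controls but 1 of 4 mutants. Judged by the mean over all 16 hearts, *Sfrp4* had the only probe set of the 9 that was dim, with a mean of 5.17.

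At E11.5, 1 of the 9 antagonists was called different between mutant and control hearts (adjusted p under 0.05 and a log2 difference over 0.5 in size), the Dickkopf gene *Dkk1*, which was lower. Among all genes, 0.251% were called at this stage. *Frzb* lay lower and *Sfrp5* higher without passing that test, so that by unadjusted p and the same difference 3 of the 9 stood out, against 2.92% of all genes. The median difference of the 9 was -0.11, close to 0 like that of all genes (0.0039), with 6 of 9 below 0. At E13.5 limma called 0 of the 9 (0.0451% of all genes), and by unadjusted p only *Sfrp5* met the rule (1.27% of all genes). The hearts of mutant and control did not overlap for 3 of the 9 at E11.5 (*Dkk1*, *Frzb* and *Wif1*; 3.93% of all genes) and for 1 of the 9 at E13.5 (*Wif1*; 4.08%).

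**Figure D1:**
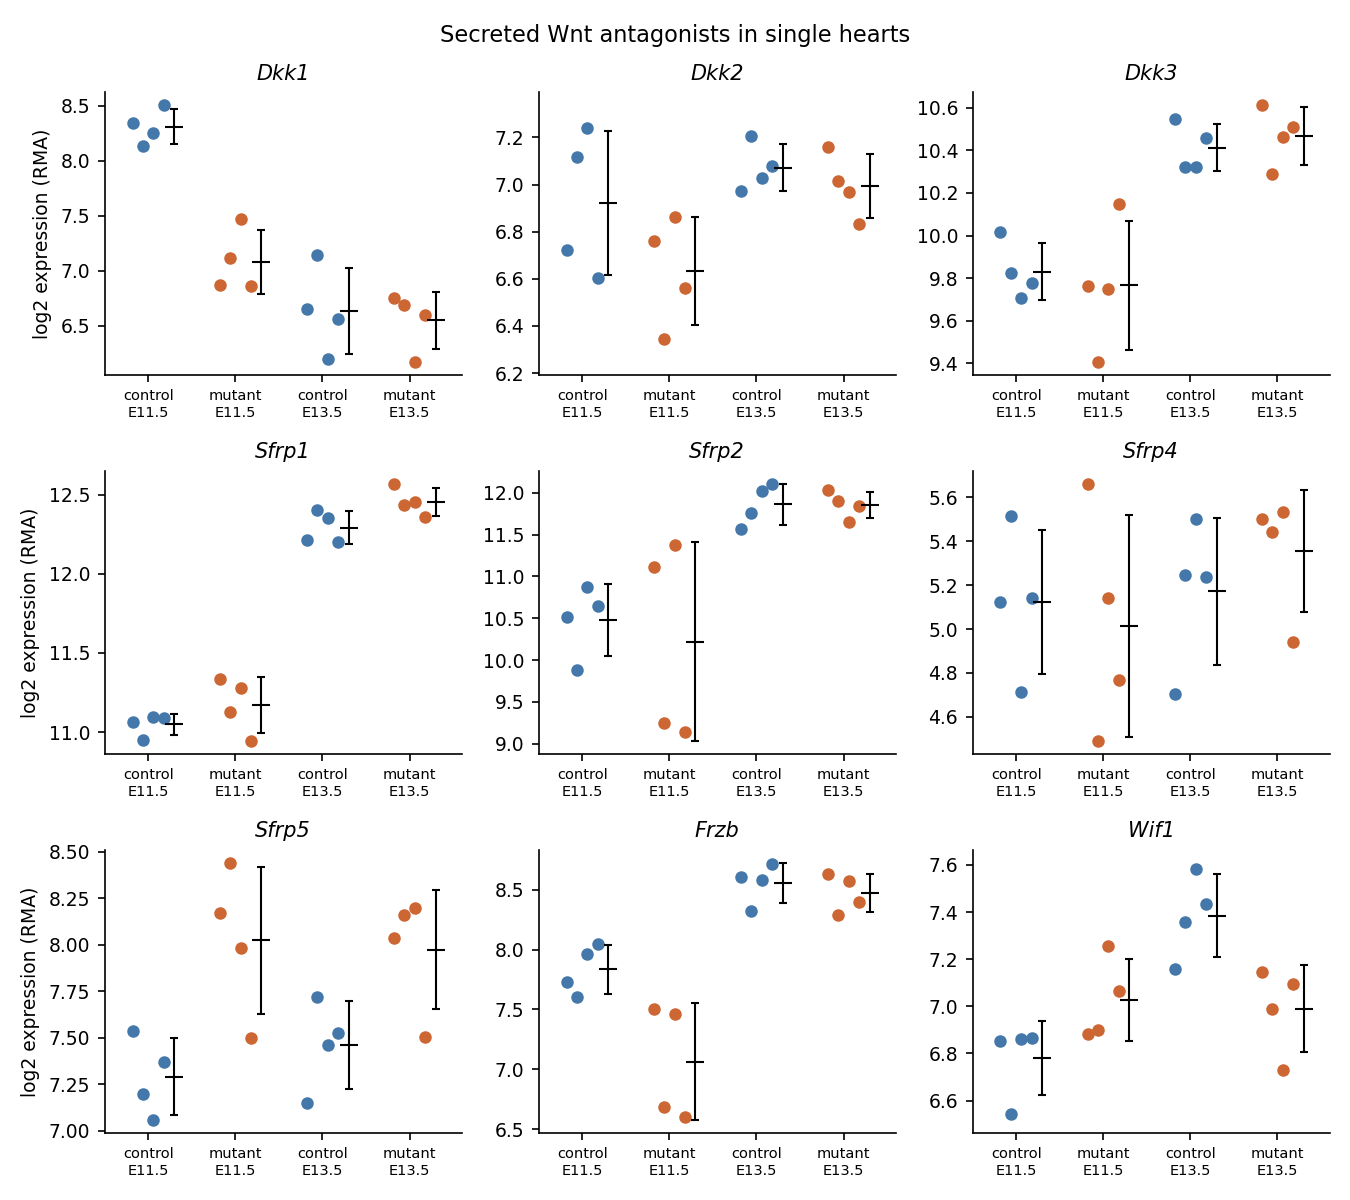
Log2 expression of the 9 secreted Wnt antagonists in single hearts, by group on the horizontal axis. Each point is 1 heart (blue, control; orange, mutant), and the black bar beside each group is its mean with 1 SD over 4 hearts; vertical scales differ between panels. The 4 control E11.5 hearts of *Dkk1* sit at 8.14 to 8.51, above all 12 other hearts, and *Sfrp2* splits into 2 high and 2 low mutant hearts at E11.5.

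*Dkk1* was measured at 8.35, 8.14, 8.26 and 8.51 in the control hearts at E11.5 and at 6.87, 7.12, 7.48 and 6.86 in the mutant hearts. Every mutant heart was below every control heart. The means were 8.31 ± 0.16 (SD, n = 4) in control and 7.08 ± 0.29 (SD, n = 4) in mutant hearts. The log2 difference was -1.23 (SE 0.19, 95% interval -1.64 to -0.82, limma adjusted p = 0.0127), which puts the mutant signal at 42.6% of control (95% interval 32 to 56.6%), and it ranked at place 14 of the 19937 genes by p. The exact two-sided permutation test gave p = 0.0286, the smallest that 4 against 4 hearts allow. In whole hearts, fewer cells expressing a gene and less RNA in each of them cannot be told apart. The call was lost in 4 of 28 alternative settings, among them array weights (adjusted p = 0.0879), a fit of E11.5 by itself (0.0850) and a fit without the 3 hearts that stood apart (0.0523). Of the 28, 16 left out a single heart and kept the call, and 1 only dropped the threshold on the difference and could not lose it. All 4 losses fell among the rest. The difference stayed between -1.36 and -1.16 over all 28, in which the adjusted p ran from 0.0043 to 0.139. With the Y-linked signal as a covariate it was -1.26 (adjusted p = 0.0415).

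At E13.5 *Dkk1* stood at 6.65, 7.14, 6.20 and 6.56 in control and 6.75, 6.69, 6.17 and 6.60 in mutant hearts. The groups overlapped fully and the difference was -0.09 (SE 0.19, 95% interval -0.50 to 0.32). Both group means (6.64 in control and 6.55 in mutant hearts) lay near the dim limit of 6.34. Control replicate 4 and mutant replicate 3 were below that limit, so a loss at E13.5 could have been missed. The 2 stages therefore gave differences of -1.23 and -0.09, and the test of that change between stages gave 1.15 (SE 0.27, unadjusted p = 0.000745, limma adjusted p = 1.00), so it did not pass over all genes. It was at place 11 by p in a comparison in which 0% of all genes were called. By unadjusted p, 3 of the 9 (*Dkk1*, *Frzb* and *Wif1*) changed their difference between stages, against 3.96% of all genes. Over the mean of both stages *Dkk1* was lower by a log2 difference of -0.66 (SE 0.14, adjusted p = 0.0487), a call that 0.276% of all genes shared in this direction and that was lost on leaving out 14 of the 16 hearts in turn (adjusted p from 0.0231 to 0.106 over the 16).

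The other Dickkopf genes differed little. *Dkk2*, whose product can activate or inhibit the pathway depending on the co-receptors present, had a difference of -0.29 at E11.5 (95% interval -0.60 to 0.03) and of -0.08 at E13.5 (-0.39 to 0.24). Its hearts ranged from 6.34 to 6.86 in mutants and from 6.60 to 7.24 in controls at E11.5, with overlap. *Dkk3*, a divergent member that does not bind LRP6 as DKK1 does, had differences of -0.06 (-0.35 to 0.23) and 0.06 (-0.23 to 0.34). For *Dkk3* these intervals exclude a loss as large as the one measured for *Dkk1* at E11.5. The intervals of *Dkk2* also leave out a difference of that size. Its group means at E11.5 (6.92 in control and 6.63 in mutant hearts) lay near the dim limit of 6.34, however, so a loss of *Dkk2* could have been understated.

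**Figure D2:**
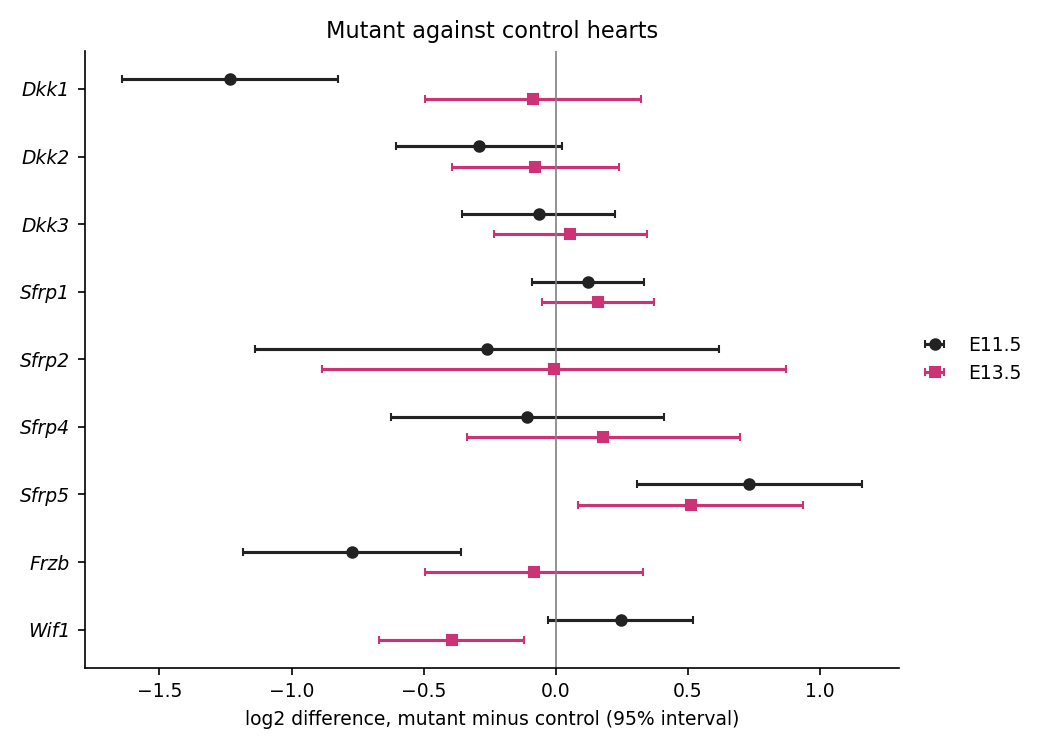
Mutant minus control log2 difference for each antagonist at E11.5 (circles) and E13.5 (squares) from limma over 16 hearts, with bars giving the 95% interval. *Dkk1* at E11.5 (-1.23) lies farthest from 0, *Frzb* (-0.77) and *Sfrp5* (0.73) follow in opposite directions, and at E13.5 the intervals of *Sfrp5* (0.51) and *Wif1* (-0.39) alone leave out 0.

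Among the Frizzled-related proteins, *Frzb* was measured at 7.73, 7.60, 7.97 and 8.05 in control hearts at E11.5 and at 7.51, 6.68, 7.46 and 6.60 in mutant hearts. All mutant hearts were below all control hearts, by little in replicates 1 and 3 and by far more in replicates 2 and 4. The log2 difference was -0.77 (SE 0.19, 95% interval -1.18 to -0.36, unadjusted p = 0.00119, adjusted p = 0.145), and it did not pass the test over all genes. At E13.5 control hearts stood at 8.61, 8.33, 8.58 and 8.72 and mutant hearts at 8.64, 8.29, 8.58 and 8.40. These overlapped (difference -0.08, 95% interval -0.50 to 0.33), and the change of the difference between stages, 0.69 (SE 0.27), had an unadjusted p of 0.0239 and an adjusted p of 1.00.

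*Sfrp2* showed the same division of the mutant hearts without a difference in the mean. Its control hearts at E11.5 stood at 10.52, 9.88, 10.88 and 10.64 and its mutant hearts at 11.11, 9.25, 11.38 and 9.14. Mutant replicates 1 and 3 were above every control heart and replicates 2 and 4 below every control heart. The gap between the lower and the higher pair was 1.86, a 3.62-fold step, and the SD of 1.19 was larger than that of 99.9% of genes in this group. In *Frzb* the same pairs were 0.78 apart. With a mean of 10.22 in mutant and 10.48 in control hearts, the difference was -0.26 with a wide interval (-1.14 to 0.62), and at E13.5 it was -0.0053 (-0.88 to 0.87). Over all 16 hearts, with each group's mean taken off, *Sfrp2* and *Frzb* had a Pearson r of 0.89, the highest of the 36 pairs of members, and *Sfrp1* and *Sfrp2* had 0.74; these points share arrays and, at E11.5, the same divided group.

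*Lum*, an extracellular matrix proteoglycan, and *Fbln5*, an elastic fibre protein, are given because they were chosen as 2 of the 3 genes that correlated best with *Sfrp2* over these hearts, so that their division follows from the choice. *Lum* stood at 9.21 and 9.15 in mutant replicates 1 and 3 and at 7.21 and 6.56 in replicates 2 and 4, against 8.56 to 9.43 in control hearts. *Fbln5* was at 10.12 and 9.90 in replicates 1 and 3 and at 8.24 and 8.54 in replicates 2 and 4. Of the 12 marker lists, 1 divided in the same direction, 5 in the opposite direction and 6 in neither. With 4 hearts such a split also arises readily among unrelated values, and its share among all genes was not counted. The mean of 5 macrophage markers was 7.97 and 7.72 in replicates 1 and 3 and 6.81 and 6.69 in replicates 2 and 4, with controls at 6.98 to 7.21. The mean of 6 cardiomyocyte markers ran the opposite way, at 12.41 and 12.40 in replicates 1 and 3, below every control, and at 12.75 and 12.71 in replicates 2 and 4, above every control (12.48 to 12.64). Replicates 2 and 4 were also the higher pair for erythroid cells (12.10 and 12.04 against 11.61 and 11.69), smooth muscle (11.06 and 11.58 against 10.71 and 10.80), endothelium and endocardium (10.77 and 10.91 against 10.59 and 10.61) and neural crest, glia and neurons (7.40 and 7.05 against 6.95 and 6.85). Control hearts ran from 11.67 to 12.42, 10.79 to 10.92, 10.72 to 10.88 and 6.82 to 7.51 for these lists in turn. The last range held all 4 mutant hearts. The 7 cushion and valve mesenchyme markers did not divide, since the 4 mutant hearts had means of 9.20 to 9.39, all below the controls at 9.41 to 9.74. *Dkk1* did not divide either, with 6.87 and 7.48 in replicates 1 and 3 and 7.12 and 6.86 in replicates 2 and 4. The part of any cell type in the division was not tested. Leaving out single hearts moved the *Sfrp2* difference at E11.5 between -0.64 and 0.10.

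**Figure D3:**
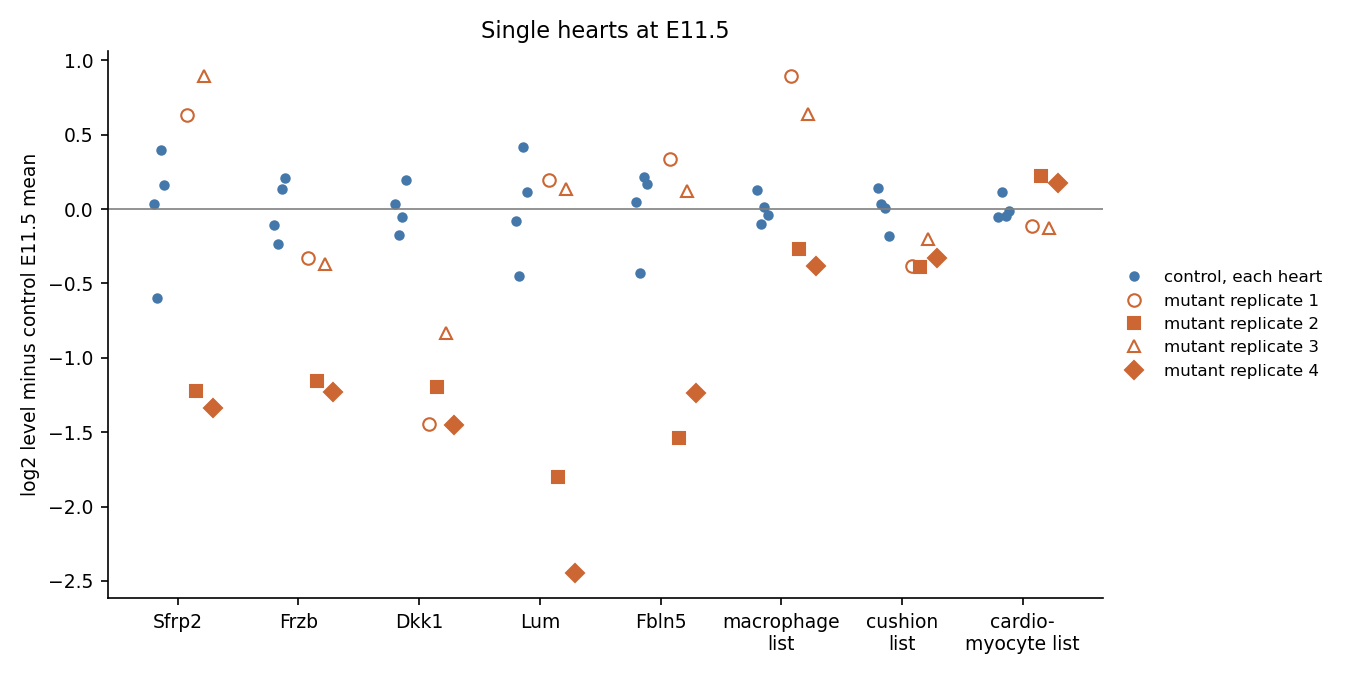
Single hearts at E11.5, each plotted as its log2 level minus the mean of the 4 control hearts, for *Sfrp2*, *Frzb*, *Dkk1*, *Lum*, *Fbln5* and the means of the macrophage, cushion and cardiomyocyte marker lists. Blue points are control hearts, and orange symbols are the 4 mutant hearts (filled, replicates 2 and 4; open, replicates 1 and 3). The filled symbols sit apart below the open ones for *Sfrp2*, *Frzb*, *Lum*, *Fbln5* and the macrophage list, above them for the cardiomyocyte list, and mixed with them for *Dkk1* and the cushion list.

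*Sfrp5*, which is known from the inflow region of the early heart, ran the other way. At E11.5 it stood at 7.53, 7.20, 7.06 and 7.37 in control and at 8.17, 8.44, 7.98 and 7.50 in mutant hearts. Of the mutant hearts, 3 were above every control heart and replicate 4 was not. The difference was 0.73 (SE 0.20, 95% interval 0.31 to 1.16), or 166% of control, with an unadjusted p of 0.00226 and an adjusted p of 0.192 in limma. At E13.5 control hearts stood at 7.15, 7.72, 7.46 and 7.52 and mutant hearts at 8.04, 8.16, 8.20 and 7.50, so that again 3 mutant hearts were above every control heart and replicate 4 was among them. The difference was 0.51 (SE 0.20, 95% interval 0.09 to 0.94, unadjusted p = 0.0219, adjusted p = 1.00). Over both stages the difference was 0.62 (SE 0.14, 154% of control, 95% interval 125 to 190%), with an adjusted p of 0.0858 in limma. Of 27 alternative settings, 20 did not call it either, and the adjusted p over all 27 ran from 0.0228 to 0.525. The 7 that called it were 5 settings other than single-heart omissions (adjusted p from 0.0405 to 0.0498) and the fits without mutant replicate 4 of either stage. That replicate was the mutant heart that lay among the controls. Without the 3 hearts that stood apart the E11.5 difference was 1.02 (adjusted p = 0.0731).

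The epicardial and macrophage marker lists lay on the same side as *Sfrp5*, but single mutant hearts at E11.5 were not ordered alike. Replicate 2 had the highest *Sfrp5* (8.44) but the lowest epicardial mean (9.62), and its macrophage mean (6.81) was below every control. Replicate 4 had the lowest *Sfrp5* (7.50), with an epicardial mean of 10.01 and a macrophage mean of 6.69. Replicates 1 and 3 were above every control for *Sfrp5* and both lists. All 5 macrophage markers were above 0 at both stages, with medians of 0.22 and 0.39, and none was called. All 8 epicardial markers lay above 0 at both stages, with medians of 0.25 and 0.32, and none was called. Their mean level was 9.62 to 10.27 in mutant and 9.49 to 9.84 in control hearts at E11.5, and 9.89 to 10.89 against 9.72 to 9.96 at E13.5. At E13.5 mutant replicates 1 and 3 stood at 10.36 and 10.89, while replicates 2 and 4 (9.89 and 9.92) lay within the control range. *Aldh1a2*, which makes retinoic acid, had the largest differences of that list at E11.5 and E13.5, 0.77 and 0.69. *Frzb* lay lower at E11.5 but differed by only -0.08 at E13.5. Of the 7 cushion markers, 6 lay below 0 at both stages (medians -0.37 and -0.24), none called. Among them *Has2*, which makes hyaluronan, was at -0.65 and -0.53. The outflow tract and second heart field list had 4 of 5 below 0 at E11.5 (median -0.23), with *Isl1* at -0.44, and 3 of 5 at E13.5 (median -0.026). The part of these cell types in the differences of the antagonists was not tested.

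*Sfrp1* differed by 0.12 at E11.5 (95% interval -0.09 to 0.34) and by 0.16 at E13.5 (-0.05 to 0.37). Its groups overlapped at both stages, with 10.94 to 11.34 in mutant and 10.95 to 11.09 in control hearts at E11.5. *Sfrp4*, whose probe set was dim, differed by -0.11 (-0.62 to 0.41) and 0.18 (-0.34 to 0.70), and its level is poorly supported in any group.

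*Wif1* gave small differences of opposite sign at the 2 stages. At E11.5 it stood at 6.85, 6.54, 6.86 and 6.86 in control and at 6.88, 6.90, 7.26 and 7.06 in mutant hearts. All mutant hearts were above all control hearts, though the nearest pair was almost level, and the difference was 0.25 (SE 0.13, 95% interval -0.03 to 0.52, unadjusted p = 0.0743), or 0.11 without the 3 hearts that stood apart. At E13.5 it stood at 7.16, 7.36, 7.58 and 7.43 in control and at 7.15, 6.99, 6.73 and 7.09 in mutant hearts. Here all mutant hearts were below all control hearts, again with the nearest pair almost level. The difference was -0.39 (SE 0.13, 95% interval -0.67 to -0.12, unadjusted p = 0.00771, adjusted p = 0.918), and the exact permutation p was 0.0286 at each stage. The change between stages was -0.64 (SE 0.18, unadjusted p = 0.00301, adjusted p = 1.00) and did not pass over all genes.

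Between E11.5 and E13.5, more of the antagonists were called than between genotypes. In control hearts 5 of the 9 rose (*Dkk3*, *Sfrp1*, *Sfrp2*, *Frzb* and *Wif1*) and *Dkk1* fell, against 28.8% of all genes called. In mutant hearts 4 rose (*Dkk3*, *Sfrp1*, *Sfrp2* and *Frzb*) and *Dkk1* fell, against 29.6%. The hearts of the 2 stages did not overlap for 6 of the 9 in controls (42.3% of all genes) and for 5 of the 9 in mutants (39%). The spread of values within an array was 2.18 to 2.26 at E11.5 and 2.38 to 2.42 at E13.5, and stage cannot be told apart from a difference in array processing between the stages.

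*Dkk1* fell by 1.67 on the log2 scale in control hearts (adjusted p = 1.24e-05), to 31.3% of its E11.5 level, and by 0.53 in mutant hearts (adjusted p = 0.0384). Its E13.5 levels lay near the dim limit of 6.34, so the sizes of these falls are less certain. The order of its group means was control E11.5 first, then mutant E11.5, control E13.5 and mutant E13.5. Control E11.5 hearts were apart from all others, and each later neighbour in that order overlapped the next. The call in mutant hearts was lost with quantile normalisation (-0.45), with array weights (-0.51), with arrays centred on their median (-0.47), without the 3 hearts that stood apart (-0.44) and on leaving out any of 4 mutant hearts: replicates 2 and 3 at E11.5, or 3 and 4 at E13.5 (lowest size -0.40).

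*Sfrp1*, which binds Wnt ligands, rose by a log2 difference of 1.24 in control (adjusted p = 5.41e-07) and 1.28 in mutant hearts (adjusted p = 4.38e-07), or to 237% and 243%. *Sfrp2* rose by 1.38 (adjusted p = 0.0144) and 1.64 (adjusted p = 0.00534), and all 8 E13.5 hearts, at 11.56 to 12.10, were above all 8 E11.5 hearts. *Frzb* rose by 0.72 (adjusted p = 0.0078) and 1.41 (adjusted p = 5.43e-05), starting from lower values in mutant hearts and reaching means of 8.56 in control and 8.48 in mutant hearts.

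*Dkk3* rose by 0.58 (adjusted p = 0.00326) and 0.70 (adjusted p = 0.000867), and with quantile normalisation by 0.34 and 0.46, short of the threshold on the difference. *Wif1* rose in control hearts by 0.60 (adjusted p = 0.00175), while in mutant hearts the difference was -0.04 (95% interval -0.31 to 0.24). *Dkk2* had 0.15 and 0.36 (adjusted p = 0.435 and 0.0599), *Sfrp4* 0.05 and 0.34, and *Sfrp5* 0.17 and -0.05, none of which passed. Macrophage markers were called higher at E13.5, 5 of 5 in each genotype (28.8% and 29.6% of all genes were called in either direction), with median differences of 1.03 and 1.14. Other lists did not all follow. In control hearts 1 of 6 cardiomyocyte and 0 of 7 endothelial and endocardial markers were called higher. Of the 7 cushion markers 2 were called lower and 1 higher there. The part of any cell type in the rise of the antagonists was not tested.

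**Figure D4:**
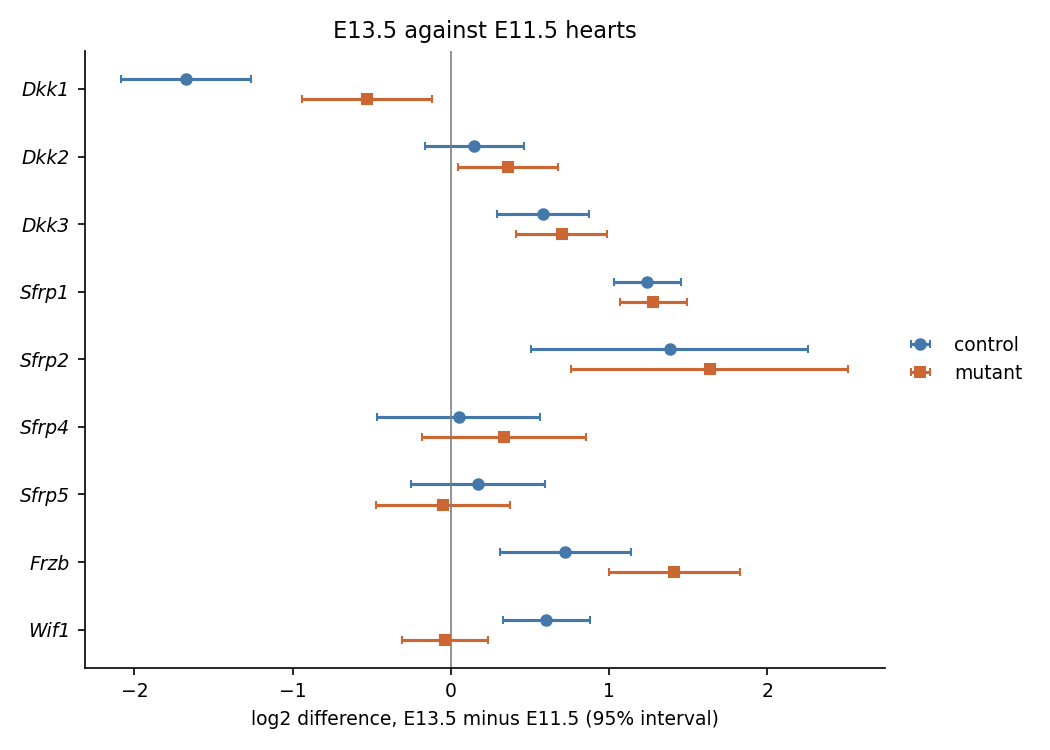
E13.5 minus E11.5 log2 difference for each antagonist in control (blue circles) and mutant hearts (orange squares) from limma over 16 hearts, with bars giving the 95% interval. *Sfrp1*, *Sfrp2*, *Frzb* and *Dkk3* lie above 0 in both genotypes, *Dkk1* lies below 0 in both (-1.67 and -0.53), and *Wif1* is above 0 in control hearts only (0.60 against -0.04).

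The rest of the pathway was read from 6 lists with 81 genes, of which 79 were measured. None of the 79 was called by limma at either stage (of all genes, 0.251% were at E11.5, and 0.0451% at the later stage), and by unadjusted p and a difference over 0.5 in size 1 was lower and 1 higher at each stage (2.92% and 1.27% of all genes), so that these counts were near those of genes at large. The medians of the lists ran from -0.04 to 0.04 at the earlier stage and, at the later, from -0.14 to 0.06, where that of all genes was 0.0042. *Dkk1* at E11.5 therefore had a larger difference than any of these 79 genes at either stage, as the plot of pathway lists shows.

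Of the 19 Wnt ligands, *Wnt4* was at -0.47 at E11.5 and *Wnt9b*, made by the endocardium over the cushions, at -0.47 at E13.5 (unadjusted p = 0.00733 and 0.00518), and *Wnt16* at 0.45 at E11.5. Of the 17 receptors and co-receptors, which include LRP5, LRP6 and the Kremen receptors that DKK1 uses, *Fzd9* was at -0.50 and the Wnt5a receptor *Ror1* at 0.43 at E11.5, and *Fzd10* at -0.63 at E13.5. Among the R-spondins, which raise the number of Frizzled receptors on the cell, *Rspo3* was at -0.27 and the dim *Rspo4* at 0.38 at E13.5. Among 11 other extracellular modulators, *Sost*, an LRP5 and LRP6 inhibitor like DKK1, was at 0.55 at E11.5 and *Dkkl1* at 0.63 at E13.5.

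Of the 14 measured cytoplasmic and nuclear components *Wls*, which carries Wnt ligands to the cell surface, was at 0.24 at E11.5. Of the 9 measured target genes of beta-catenin, 4 lay below 0 and 5 above 0 at each stage. *Axin2*, the target most often read as a measure of the pathway, was at -0.16 at E11.5 (95% interval -0.42 to 0.11) and at -0.36 at E13.5 (-0.63 to -0.10, unadjusted p = 0.00951, adjusted p = 0.990). *Nkd2*, a feedback inhibitor, was at 0.29 and *Myc* at -0.28 at E11.5.

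**Figure D5:**
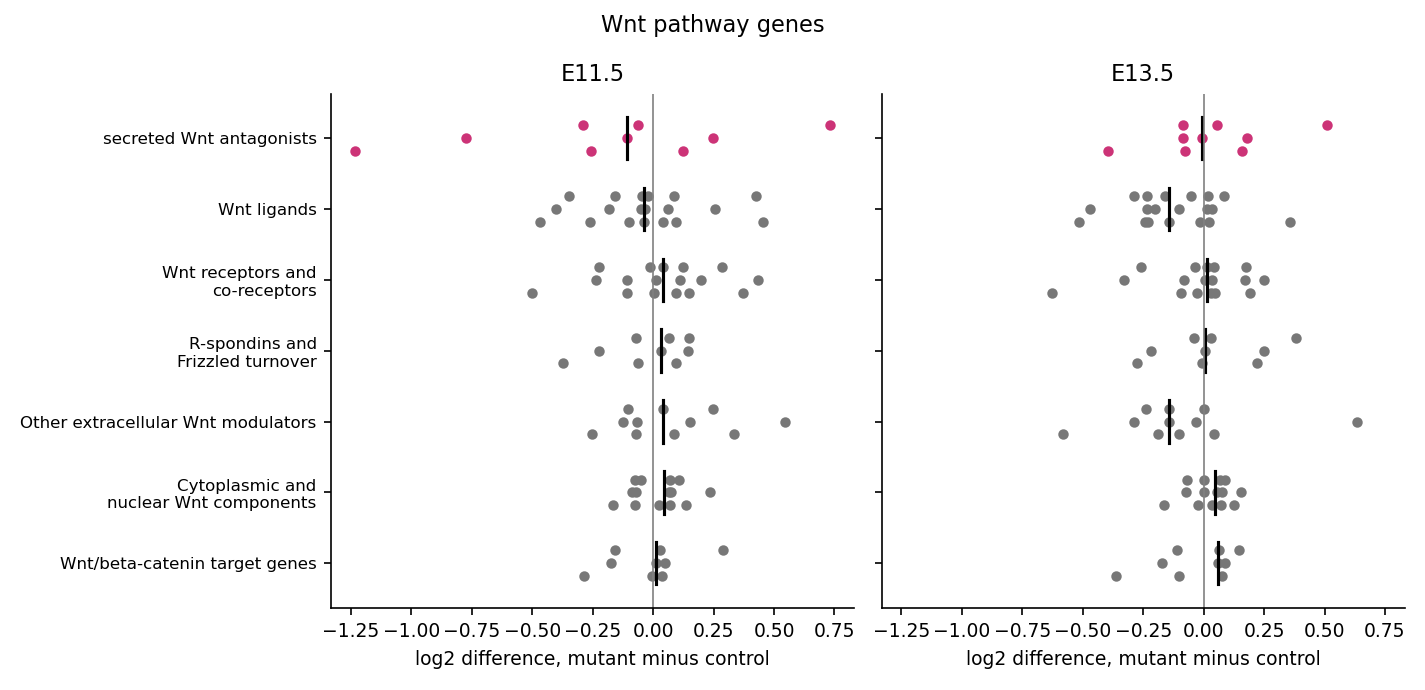
Mutant minus control log2 difference of each gene at E11.5 (left) and E13.5 (right), by list, with 1 point a gene and a black line at the median of the list; the small vertical offsets only separate the points. The 9 antagonists (magenta, top) run from -1.23 to 0.73 on the left and from -0.39 to 0.51 on the right, and the lists of other Wnt pathway genes (grey) stay between -0.63 and 0.63.

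The genes most like each antagonist were taken by Pearson r over the 16 hearts, after the mean of each stage was subtracted, as a description of hearts that share arrays. They were *Psd2*, *St6galnac5* and *Slc16a13* for *Dkk1* (r from 0.84 to 0.85, but 0.53 to 0.63 with the mean of each group subtracted, since these values include the gap between mutant and control hearts), *Rtl3*, *Tapbpl* and *Rgs5* for *Frzb* (0.87 to 0.91), and *Fbln5*, *Atg4a* and *Lum* for *Sfrp2* (0.89 to 0.92). *Rgs5*, a pericyte transcript, was the one called gene among them, with a difference of -2.04 at E11.5 (adjusted p = 0.0340) and of 0.32 at E13.5. Its r with *Frzb* was 0.73 with group means subtracted. *Kcnmb2*, *Teddm2* and *Fig4* were nearest to *Sfrp5* (0.86 to 0.90, and 0.63 to 0.75 with group means subtracted). For *Wif1* they were *Acta2*, the smooth muscle actin, *Mcam*, a cell adhesion molecule of smooth muscle and endothelium, and *Gnb1* (0.84 to 0.88, and 0.72 to 0.91 with group means subtracted). *Acta2* differed by 0.06 at E11.5 and by -0.18 at E13.5, with the same signs as *Wif1* and smaller sizes. The choice of these genes included the gap between mutant and control hearts, so it favoured matching signs. For the remaining members that were not dim, they were *Vmn2r10*, *Apol6* and *Mir412* for *Dkk2* (0.85 to 0.87). They were *Cebpg*, *Plod3* and *Cox4i2* for *Dkk3* (0.82 to 0.83), and *Wdr61*, *Them4* and *Krtap19-5* for *Sfrp1* (0.86 to 0.88).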

How the data were processed

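Total RNA of single whole hearts was converted to sense-strand cDNA and hybridised to Affymetrix Mouse Gene 1.0 ST arrays. The authors normalised the arrays with RMA (affy package) and named limma for differential expression, and versions were not given in the sources used here. The deposited values are log2 expression values of 34760 probe sets in 16 hearts, from 2.74 to 14.56, with no missing values. They were used as deposited. Whether both stages were normalised in 1 run is not given in the sources used here.

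Probe sets were named through the platform annotation (21640 naming 1 gene, 1321 several, 11799 none), and a gene was read from its brightest single-gene probe set. The fit used R 4.3.3 and limma 3.58.1, held all 16 hearts and gave each of the 4 groups its own mean, which left 12 residual degrees of freedom. Benjamini-Hochberg adjustment ran over all probe sets. A gene was called at an adjusted p under 0.05 and a log2 difference over 0.5 in size, without the second limit for the difference between stages. A probe set was dim below percentile 40 of the probe set means. Exact two-sided permutation tests compared 4 against 4 hearts. Hearts are biological replicates, and their number limits the precision. No 2 hearts held the same values.

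All 9 members were named at both stages. Of each pathway list, genes called in mutant against control were named, or else up to 3 with the smallest unadjusted p under 0.05 at either stage, and the 3 genes most like each member that was not dim were named. The members, lists and tests were chosen with earlier results of these data known. *Tcf7* and *T* were not analysed here. In simulated data with known changes at E11.5, over 34760 probe sets, 64% of changes of 0.75 and 80% of changes of 1 were called. There were 50 changes of each size, and the noise was normal with the same spread in all groups. In the real hearts at E11.5 the spread could differ by group, as for *Dkk1* (SD 0.29 in mutant against 0.16 in control) and, the other way, *Dkk2* (0.23 against 0.31). These shares may therefore not hold for the real hearts. Upstream sequences came from RefSeq (GRCm38.p6), which held 6 of the 9 members. Figures were drawn with matplotlib under Python. Probe-level files and protein sequences were not used here.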

Additional observations from a re-analysis of the deposited data

Results flagged for a closer look

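In 2 of 36 groups of 4 hearts, 1 heart lay far from the other three, and chance alone flags about 1 in 20 groups. *Sfrp4* in mutant E13.5 replicate 4 stood at 4.94 against 5.44 to 5.53 in the other hearts of its group, for a probe set that was dim throughout. *Wif1* in control E11.5 replicate 2 stood at 6.54 against 6.85 to 6.86.

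The mutant minus control difference changed between the stages by 1.15 for *Dkk1*, by 0.69 for *Frzb* and by -0.64 for *Wif1*. Each of the 3 passed limma's unadjusted p of 0.05 in the test of that change, and each had an adjusted p of 1.00 over all probe sets.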

How the results depend on the processing

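The number of antagonists called lower at E11.5 went from 1 to 0 with array weights, with the replicate block, with a separate fit of each stage and without the 3 hearts that stand apart (a set chosen after seeing the data), and was 1 to 1 on leaving out single hearts. Over the mean of both stages the number called lower went from 1 to 0 with array weights, the replicate block, the Y-linked covariate and without the 3 hearts, and was 0 to 1 on leaving out single hearts. The number called higher there went from 0 to 1 (*Sfrp5*) with a trended and robust prior, without dim probe sets, with only probe sets naming a single gene, with the median of the probe sets of a gene and without the 3 hearts, and was 0 to 1 on leaving out single hearts. In mutant hearts the number lower at E13.5 than at E11.5 went from 1 to 0 with array weights, quantile normalisation, arrays centred on their median and without the 3 hearts, and was 0 to 1 on leaving out single hearts. Fewer hearts or fewer residual degrees of freedom are part of the fits by stage, block and left-out hearts, and otherwise the cause was not tested.

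Signs turned only for differences that were not called. With the replicate block *Dkk1* at E13.5 was 0.014 and *Sfrp2* at E13.5 was 0.14. With the Y-linked covariate *Sfrp2* at E13.5 was 0.068, and E13.5 minus E11.5 was -0.0086 for *Sfrp4* in control hearts and 0.00070 for *Wif1* in mutant hearts. In mutant hearts the same stage difference of *Wif1* was 0.018 with quantile normalisation, 0.018 with centred arrays and 0.10 without the 3 hearts, and that of *Sfrp5* was 0.0052 with centred arrays. On leaving out single hearts, *Dkk1* at E13.5 ran from -0.23 to 0.082, *Dkk3* at E11.5 from -0.19 to 0.056, *Sfrp2* from -0.64 to 0.10 at the earlier stage and from -0.10 to 0.074 at the later, *Sfrp4* from -0.32 to 0.067 at E11.5 and, between stages in control hearts, from -0.086 to 0.21, and between stages in mutant hearts *Sfrp5* from -0.22 to 0.11 and *Wif1* from -0.089 to 0.050.

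Replicate numbers did not pair the hearts: deviations of same-numbered hearts correlated at -0.06 to 0.01. With the block the adjusted p of *Dkk1* at E11.5 was 0.139 (0.0043 to 0.139 over its alternatives), and the block was not run for the stage comparisons.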
